A study of Mus musculus with 79 samples.

Results

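Genes of fatty acid oxidation and its peroxisome proliferator-activated receptor (PPAR) control were examined in whole mammary tumors, by looking up a written list of 38 gene symbols in the gene table of the array. Of the 38 genes, 33 had a row among the 19505 genes with 1 symbol, and Etfb, Acsl1, Acsl3, Ppard and Ucp2 were not analysed here. RNA of 79 tumors, each from its own female C57BL/6J mouse, was measured on Clariom S Mouse HT arrays, and all values below are log2 signals or differences between them. Mice were randomized at 8 to 9 weeks of age and were 33 to 34 weeks old when killed. DIO mice became obese on chow with 60 kcal% fat, and Con mice were fed a matched chow with 10 kcal% fat. DIOSul and ConSul mice ate these diets with 140 ppm sulindac, a nonsteroidal drug that inhibits both cyclooxygenases. The methods of the study give 15 weeks of diet and 5 weeks with or without sulindac before 20000 cancer cells were injected into mammary fat pad 4, whereas the sample labels put the injection 5 weeks after the first randomization. The cancer cells were of 3 lines. M-Wnt cells that had spread to the lung gave metM-Wnt-lung, and those that had spread to the liver gave metM-Wnt-liver. M-Wnt cells come from an MMTV-Wnt1 mammary tumor of a C57BL/6 mouse, and E0771 is a triple-negative mouse mammary carcinoma line that carried GFP and a luciferase here. The DIOSul, DIO, ConSul and Con groups held 7, 7, 6 and 6 metM-Wnt-lung tumors, 7, 7, 4 and 7 metM-Wnt-liver tumors and 8, 8, 6 and 6 E0771 tumors. All mice of a line were killed once any of its tumors reached 1.5 cm, and tumor size was in no test.

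Long-chain fatty acids enter cells partly through Cd36, are joined to coenzyme A by the acyl-CoA synthetases (Acsl), and reach the mitochondrial matrix as carnitine esters through Cpt1, the translocase Slc25a20 and Cpt2. In the matrix, repeated rounds of dehydrogenation, hydration, another dehydrogenation and thiolysis shorten the chain, with peroxisomes taking the very long chains. PPARs are nuclear receptors that bind fatty acids and raise many of these genes. Pparg is best known as the master regulator of fat cells and is also used by macrophages, and Ppara drives oxidation in liver and muscle.

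The promoters of 4 of the genes that the results turn on are given first, from RefSeq windows of 250 bases before and 50 after a gene's start in build GRCm38.p6. Windows were found for 33 of the 38 listed genes, 36 windows in all. Capitals mark GGGCGG (the GC box), CCAAT and AGGTCA (the half-site of PPARs and related receptors) on either strand. Hadha and Hadhb, which encode the subunits of the mitochondrial trifunctional protein, start 273 bases apart on opposite strands, so the window of Hadhb at chr5:30155003-30155302 (plus strand) shares 228 bases, chr5:30155003-30155230, with that of Hadha (minus strand). Pparg has 3 windows, all on the plus strand, of which the first and last are printed because they differ most in base composition. They lie at chr6:115360894-115361193 and chr6:115421816-115422115 and have 80.3% and 40.3% G and C. The middle one, at chr6:115362099-115362398, has 62.7% and holds 1 AGGTCA, 1 CCAAT and 2 GC boxes. The Cd36 window is at chr5:17835847-17836146 (minus strand). It belongs to a start inside the gene, which spans chr5:17781690-17888959, and not to its outermost start.
Hadhb: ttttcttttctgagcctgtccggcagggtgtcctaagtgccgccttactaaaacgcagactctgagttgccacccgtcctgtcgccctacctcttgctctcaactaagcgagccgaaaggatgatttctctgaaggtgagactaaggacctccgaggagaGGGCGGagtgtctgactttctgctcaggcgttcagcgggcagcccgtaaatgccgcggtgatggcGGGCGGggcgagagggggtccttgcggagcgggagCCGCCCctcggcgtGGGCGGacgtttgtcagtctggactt
Pparg, upstream start: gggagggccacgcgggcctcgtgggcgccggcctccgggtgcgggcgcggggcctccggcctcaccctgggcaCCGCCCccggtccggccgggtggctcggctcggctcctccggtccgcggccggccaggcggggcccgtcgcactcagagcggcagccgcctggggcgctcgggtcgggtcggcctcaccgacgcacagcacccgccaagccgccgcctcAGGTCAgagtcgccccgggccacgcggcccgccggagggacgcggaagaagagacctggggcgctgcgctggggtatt
Pparg, downstream start: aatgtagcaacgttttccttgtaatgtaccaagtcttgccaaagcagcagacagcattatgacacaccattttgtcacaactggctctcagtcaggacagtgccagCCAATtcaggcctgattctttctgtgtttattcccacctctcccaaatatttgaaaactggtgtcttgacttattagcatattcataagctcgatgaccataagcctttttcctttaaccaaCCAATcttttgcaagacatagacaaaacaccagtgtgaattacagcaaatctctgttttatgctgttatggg
Cd36: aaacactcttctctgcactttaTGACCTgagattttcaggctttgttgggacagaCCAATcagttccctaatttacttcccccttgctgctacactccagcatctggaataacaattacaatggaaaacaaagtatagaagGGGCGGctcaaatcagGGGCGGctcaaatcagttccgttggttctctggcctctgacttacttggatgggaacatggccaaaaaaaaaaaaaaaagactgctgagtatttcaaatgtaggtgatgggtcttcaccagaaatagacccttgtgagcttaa
The Hadhb window holds 4 GC boxes, the upstream Pparg window 1 AGGTCA and 1 GC box, the downstream Pparg window 2 CCAAT, and the Cd36 window 1 AGGTCA, 1 CCAAT and 2 GC boxes. A full PPAR response element of the form AGGTCANAGGTCA, which contains AGGTCA, was in 0 of the 36 windows of the listed genes and in 13 of all 32851 windows (0.0396%). AGGTCA was in 9 of the 36 windows (25%) and in 16.3% of all windows, CCAAT in 17 (47.2%) and 37.4%, and GGGCGG in 26 (72.2%) and 35.7%. The median share of G and C was 61.0% in these 36 windows and 52.7% in all windows. These matches describe letters in a window and do not show that a factor binds there.

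Facts about the arrays come before the results because several results rest on them. The 10 arrays of ConSul tumors of metM-Wnt-liver and Con tumors of metM-Wnt-lung had a wider spread of values than the other 41 metM-Wnt arrays, with the top percentile starting at 16.28 to 16.48 against 16.1 to 16.34. The same 10 tumors were high in fat cell genes. An adipocyte score, the mean over 9 adipocyte genes such as Adipoq and Plin1 of each gene's log2 signal minus its mean in that line, had medians of 3.68 in metM-Wnt-lung Con and 3.75 in metM-Wnt-liver ConSul tumors, and between -2.41 and 0.58 in the other 10 groups. A skeletal muscle score over 10 genes passed 2 in 19 tumors spread over 11 of the 12 groups. The spread, the score and the group cannot be told apart in comparisons with metM-Wnt-lung Con or metM-Wnt-liver ConSul tumors. In whole tumors, fewer cells of a type and less RNA per cell cannot be told apart either. The labels do not say whether arrays of a group were run on separate days, and p-values measure the spread between tumors.

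**Figure D1:**
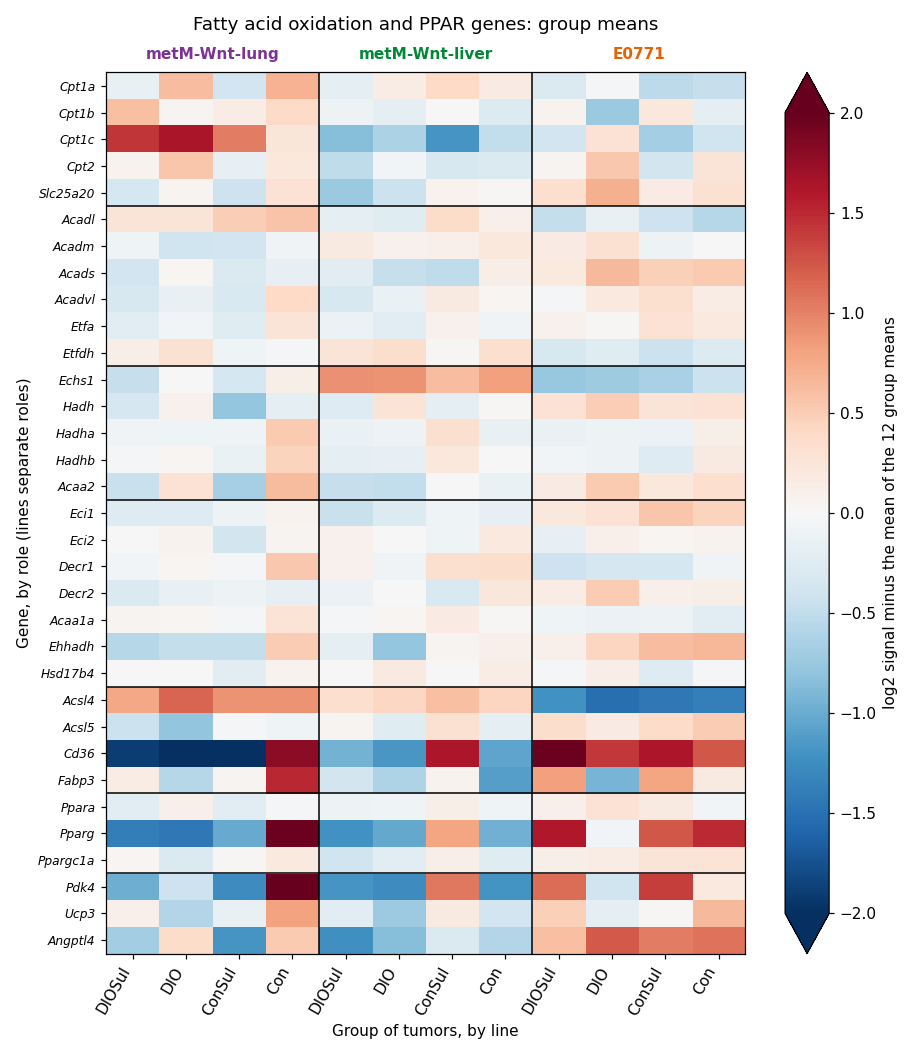
Mean log2 signal of each gene in each of the 12 groups, minus the mean of its 12 group means (color, cut off at -2 and 2), with genes in rows by role and groups in columns by line. Cd36, Pparg and Pdk4 vary most, and metM-Wnt-lung Con stands apart from the other metM-Wnt-lung groups. Acsl4 is lower in E0771 than in both metM-Wnt lines, and Cpt1c is higher in metM-Wnt-lung than in the other lines.

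The genes differed widely in how much they varied among the 79 tumors. Pdk4, the kinase that turns off pyruvate dehydrogenase, ranged over 10.36 log2 units, Cd36 over 9.76, Fabp3, the fatty acid binding protein of heart and muscle, over 7.78 and Pparg over 7.64. The enzymes of the main pathway varied far less. Acaa1a, a peroxisomal thiolase, ranged over 1.09 units, and Etfa and Hadha over 1.33 each. Within groups the SD averaged 0.19 for Hadha and 0.22 for Etfa, against 2.19 for Pdk4 and 1.53 for Cd36. The mean signal of 7 genes, Cpt1b, Cpt1c, Ehhadh, Fabp3, Ppara, Ppargc1a and Ucp3, was not above that of the median gene. Differences in these 7 are differences between low signals.

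The lines were compared first. Line, time of tumor growth and any batch that went with the line cannot be told apart in these comparisons. In a limma fit of all 12 groups, with the 4 conditions weighted equally and p-values adjusted by Benjamini-Hochberg over 19505 genes, 24 of the 33 genes differed between metM-Wnt-lung and E0771 tumors (9 higher and 15 lower), where 63.1% of all genes did. Of all genes 29.2% were called higher and 33.9% lower there. Between metM-Wnt-liver and E0771 tumors it was 23 (7 higher and 16 lower), where 62.8% of all genes did (29.3% higher and 33.5% lower). For metM-Wnt-lung minus metM-Wnt-liver it was 8 (4 higher and 4 lower), where 17.3% of all genes did (8.59% higher and 8.66% lower). The share of these genes that differed was thus near that of all genes. Their median difference was -0.21 in metM-Wnt-lung minus E0771 and -0.26 in metM-Wnt-liver minus E0771, beside -0.02 over all genes in each.

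Acsl4, which activates arachidonic acid and other polyunsaturated fatty acids, was the most clearly separated gene. It ranged from 13.52 to 14.91 (median 13.90) in the 26 metM-Wnt-lung tumors, from 12.76 to 14.36 (median 13.52) in the 25 metM-Wnt-liver tumors, and from 11.04 to 12.23 (median 11.65) in the 28 E0771 tumors. No metM-Wnt tumor overlapped with an E0771 tumor. The difference from E0771 was 2.31 ± 0.10 (SE) in metM-Wnt-lung tumors, a 4.97-fold higher signal (limma adjusted p = 3.5e-34), and 1.82 ± 0.10 in metM-Wnt-liver tumors, 3.53-fold (adjusted p = 1.9e-27). Echs1, the short-chain enoyl-CoA hydratase, followed the other order among the metM-Wnt lines. It lay between 12.01 and 13.78 in metM-Wnt-liver tumors, and between 10.72 and 11.91 in E0771 tumors, without overlap, and between 11.10 and 12.66 in metM-Wnt-lung tumors. Echs1 was 1.45 ± 0.09 higher in metM-Wnt-liver than in E0771 tumors and 0.99 ± 0.10 lower in metM-Wnt-lung than in metM-Wnt-liver tumors (limma adjusted p = 2.5e-23 and 1.9e-13). Among all genes, 6.77% had no overlap between metM-Wnt-lung and E0771 tumors and 6.64% none between metM-Wnt-liver and E0771 tumors.

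Of the carnitine shuttle, Cpt1c, the brain form of carnitine palmitoyltransferase 1, was highest in metM-Wnt-lung tumors. It ranged from 5.55 to 8.43 (median 7.02) there, from 4.48 to 5.88 (median 5.09) in metM-Wnt-liver tumors and from 4.41 to 6.94 (median 5.51) in E0771 tumors. The metM-Wnt-lung tumors exceeded metM-Wnt-liver tumors by 1.88 ± 0.14 and E0771 tumors by 1.38 ± 0.13 (limma adjusted p = 1.1e-18 and 2.0e-15). Cpt1a, the liver form and the rate-limiting step in most tissues, was 0.52 ± 0.12 and 0.46 ± 0.12 (SE) higher in metM-Wnt-lung tumors and in tumors of metM-Wnt-liver than in E0771 tumors. Slc25a20 was 0.48 ± 0.10 and 0.64 ± 0.10 lower. Cpt2 was 0.47 ± 0.10 higher in metM-Wnt-lung than in metM-Wnt-liver tumors. Cpt1b, the muscle form, was not called between lines.

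The acyl-CoA dehydrogenases, which take the first step for chains of different length, did not move together between lines. Acadl, for long chains, lay between 13.32 and 14.51 in metM-Wnt-lung, between 12.95 and 14.18 in metM-Wnt-liver and between 12.63 and 13.65 in E0771 tumors. It was 0.80 ± 0.07 higher in metM-Wnt-lung and 0.41 ± 0.08 higher in metM-Wnt-liver than in E0771 tumors (limma adjusted p = 5.7e-16 and 1.7e-06). Acads, for short chains, was 0.66 ± 0.10 and 0.72 ± 0.10 lower. Acadm, for medium chains, was 0.32 ± 0.08 lower in metM-Wnt-lung than in E0771 tumors. Etfdh, which passes their electrons to ubiquinone, was 0.40 ± 0.09 and 0.56 ± 0.09 higher in the metM-Wnt lines. Of the later steps, Hadh, the short-chain hydroxyacyl-CoA dehydrogenase, was 0.63 ± 0.09 and 0.36 ± 0.10 lower than in E0771 tumors, and of the auxiliary enzymes Eci1, an enoyl-CoA isomerase, was 0.51 ± 0.08 and 0.62 ± 0.08 lower.

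**Figure D2:**
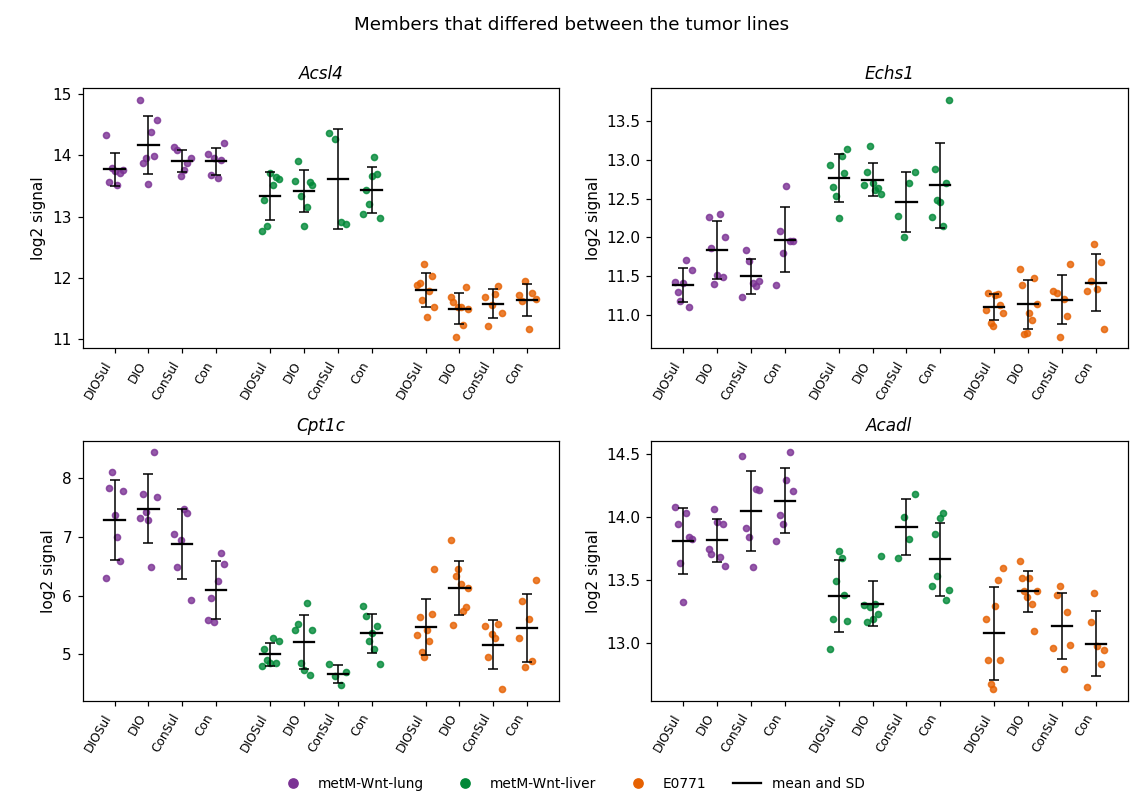
Log2 signal of Acsl4, Echs1, Cpt1c and Acadl in each tumor (points), by line (color) and group, with the mean and SD of each group in black. The E0771 tumors sit below all metM-Wnt tumors for Acsl4, metM-Wnt-liver tumors lead for Echs1 and metM-Wnt-lung tumors for Cpt1c.

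Cd36, Pparg, Angptl4 and Acsl5 were higher in E0771 tumors than in both metM-Wnt lines. Cd36 had medians of 8.96 in metM-Wnt-lung, 10.11 in metM-Wnt-liver and 12.29 in E0771 tumors, and was 2.73 ± 0.41 and 1.95 ± 0.42 lower in the metM-Wnt lines. Pparg had medians of 7.71, 7.45 and 9.47 in the same order and was 1.54 ± 0.27 and 1.67 ± 0.27 lower. Angptl4, a secreted inhibitor of lipoprotein lipase and PPAR target, was 1.23 ± 0.19 and 1.73 ± 0.20 lower, and Acsl5 0.68 ± 0.07 and 0.37 ± 0.07 lower (limma adjusted p at most 4.9e-05 for each of these 4 genes). Fat cell genes differed between the lines too. The uncentred level of the 9 adipocyte genes, their mean log2 signal, had group medians of 8.15 to 9.61 in E0771 tumors. In metM-Wnt tumors these were 3.97 to 6.23, except 10.05 in metM-Wnt-lung Con and 9.86 in metM-Wnt-liver ConSul tumors. The part of fat cells in the line differences was not tested. For metM-Wnt-lung minus E0771 the differences of Cd36 and Pparg were 0.54 and 0.47 among Con tumors alone, the reverse sign, with neither called. With the uncentred levels of the adipocyte and muscle genes as covariates, Cd36 was 0.33 higher in metM-Wnt-liver than in E0771 tumors, not called. Acsl4 was called in both metM-Wnt lines under each of the 12 alternatives, at 1.54 to 2.68, and Echs1 of metM-Wnt-liver minus E0771 at 1.26 to 1.67.

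In metM-Wnt-lung tumors obesity was compared first. Between DIO and Con tumors 6 of the 33 genes were called (1 higher and 5 lower), where 27.4% of all genes were (14.0% higher and 13.4% lower). Hadha lay between 12.94 and 13.54 (median 13.24) in the 7 DIO tumors, against 13.66 to 14.12 (median 13.84) in the 6 Con tumors, without overlap, and was 0.61 ± 0.11 lower (limma adjusted p = 0.00027). Acsl5 lay between 12.76 and 13.76 in DIO tumors, against 13.83 to 14.27 in Con tumors, also without overlap, and was 0.70 ± 0.16 lower (adjusted p = 0.0019). These were the 2 genes whose groups did not overlap, where 6.92% of all genes had none. Pparg lay between 5.19 and 10.15 (median 6.65) in DIO tumors, against 9.39 to 12.83 (median 10.18) in Con tumors, and was 3.38 ± 0.63 lower (adjusted p = 3.0e-04). Cd36 lay between 6.28 and 14.03 (median 7.37) in DIO tumors, against 10.02 to 16.04 (median 12.39) in Con tumors, and was 4.29 ± 1.0 lower, 19.6-fold (adjusted p = 0.0025). A single DIO tumor, replicate 4, at 14.03 for Cd36 and 10.15 for Pparg, made both overlaps. Without it 11 genes were called, where the 26 fits that left out 1 tumor called 4590 to 6038 of all 19505 genes. Acadvl, the very long chain dehydrogenase, was 0.54 ± 0.13 lower (adjusted p = 0.0030). Cpt1c was the 1 gene higher in DIO tumors, at 6.48 to 8.43 (median 7.42) against 5.55 to 6.72 (median 6.10) in Con tumors, a difference of 1.38 ± 0.31 (adjusted p = 0.0020).

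Sulindac in lean mice was compared against the same Con tumors. Between ConSul and Con tumors 11 of the 33 genes were called, all lower, where 17.4% of all genes were called and 9.01% were called lower. The median difference of the 33 genes was -0.48, beside 0.03 over all genes. Acaa2, the last thiolase of the mitochondrial round, lay between 10.75 and 11.88 (median 11.74) in ConSul tumors, against 12.02 to 13.54 (median 12.84) in Con tumors, and was 1.30 ± 0.25 lower (limma adjusted p = 0.00083). Hadha was 0.62 ± 0.12 lower, Acadvl 0.70 ± 0.13, Cpt1a 1.07 ± 0.25 and Pparg 2.96 ± 0.65 (adjusted p = 0.00074, 0.00078, 0.0042 and 0.0028). Cpt1a lay between 10.03 and 11.36 in ConSul tumors, against 11.62 to 12.69 in Con tumors. These 5 genes and Hadhb did not overlap between the groups, 6 of 33, where 7.66% of all genes had no overlap. Hadhb was 0.58 ± 0.18 lower, Hadh 0.60 ± 0.19, Slc25a20 0.71 ± 0.22, Angptl4 1.71 ± 0.44, Cd36 3.88 ± 1.04 and Pdk4 4.19 ± 1.37. By role, the 5 later-step enzymes had 4 genes lower, the 5 genes of the carnitine shuttle 2, and the 7 auxiliary and peroxisomal enzymes 0. Without Con replicate 4 or without ConSul replicate 5 the count was 7.

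Both comparisons of metM-Wnt-lung share the Con tumors of wide spread, in which fat cell genes were high. All 9 adipocyte genes were lower in DIO than in Con tumors (median difference -4.27) and all 9 were lower in ConSul than in Con tumors (median -4.01). The adipocyte score ranged from -2.73 to 2.72 in DIO and from -2.44 to 0.87 in ConSul tumors, against 1.69 to 7.68 in Con tumors. Of 7 macrophage genes, 6 were lower in each comparison as well. Of 5 fibroblast genes, 4 were lower in DIO and 5 in ConSul than in Con tumors, of 6 endothelial genes 2 and 5, and of 6 epithelial genes 4 and 4. The fibroblast score was -2.31 to 1.20 in DIO and -1.42 to 0.22 in ConSul tumors, both below the 1.35 to 3.05 of Con tumors. The endothelial score was -0.48 to 0.65 in DIO and -0.93 to 0.04 in ConSul tumors, against 0.43 to 1.33 in Con tumors. In DIO tumors all 6 T cell genes were also lower and 3 of 6 neutrophil genes higher than in Con tumors. The part of these cell types was not tested. With the adipocyte and muscle scores as covariates, 1 gene was called in each comparison. In DIO minus Con it was Cd36, 2.58 higher (adjusted p = 0.024), the reverse sign, while Pparg stood at 0.19 and was not called. A fit of both metM-Wnt lines with a term for the arrays of wide spread called 0 of the 33 genes in either comparison. Every metM-Wnt-lung Con tumor carries that term, so this fit cannot decide either comparison in that line. The same pooled fit without that term, chosen after seeing the data, called 5 genes in DIO minus Con, all lower, and 0 in ConSul minus Con.

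The comparison of DIO with ConSul tumors was added after the values were seen, and these groups differ in both diet and drug. No Con value enters its differences. The Con tumors of wide spread were in the same fit, so they enter the shared estimate of the spread behind its SEs and p-values. Here 5 of the 33 metM-Wnt-lung genes were called (4 higher and 1 lower), where 2.15% of all genes were called (0.615% higher and 1.54% lower). The 4 higher genes span the carnitine shuttle and the later steps. Cpt1a lay between 11.44 and 12.27 (median 11.68) in DIO tumors, against 10.03 to 11.36 (median 10.98) in ConSul tumors, and was 0.99 ± 0.24 higher (limma adjusted p = 0.027). Acaa2 lay between 12.23 and 13.25 (median 12.43) in DIO tumors, against 10.75 to 11.88 (median 11.74) in ConSul tumors, and was 0.96 ± 0.24 higher (adjusted p = 0.032). Neither gene overlapped between the groups. Hadh had a median of 12.45 in DIO tumors, against 11.48 in ConSul tumors, and was 0.86 ± 0.19 higher (adjusted p = 0.012). Cpt2, which returns the acyl group to coenzyme A in the matrix, had a median of 10.44 in DIO tumors, against 9.83 in ConSul tumors, and was 0.72 ± 0.17 higher (adjusted p = 0.022). Hadh and Cpt2 overlapped between the groups by 0.07 log2 units each. Acsl5 lay between 12.76 and 13.76 (median 13.43) in DIO tumors, against 13.88 to 14.32 (median 14.10) in ConSul tumors, and was 0.75 ± 0.16 lower (adjusted p = 0.010). Together with Angptl4 (1.55 ± 0.43, adjusted p = 0.055), Cpt1a, Acaa2 and Acsl5 were the 4 genes whose groups did not overlap, where 0.723% of all genes had none.

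Of the 9 adipocyte genes 0 were called between these groups, with scores of -2.73 to 2.72 in DIO and -2.44 to 0.87 in ConSul tumors. Of 6 T cell genes, 6 were lower in DIO tumors (median -2.26). Of 6 endothelial genes 1 was higher, with scores of -0.48 to 0.65 in DIO and -0.93 to 0.04 in ConSul tumors. The neutrophil score was -0.58 to 4.10 in DIO and -0.77 to -0.49 in ConSul tumors, with 0 of 6 neutrophil genes called. The part of these cell types in the result was not tested. With the adipocyte and muscle scores as covariates 6 genes were called, among them Hadh, Cpt1a, Acaa2 and Acsl5, while Cpt2 was 0.69 higher with adjusted p = 0.051. The count fell to 1 without tumors high in muscle or skin genes and to 1 in a fit of only the 2 groups, to 2 without ConSul replicate 5, and to 3 without DIO replicate 2, 5 or 6.

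**Figure D3:**
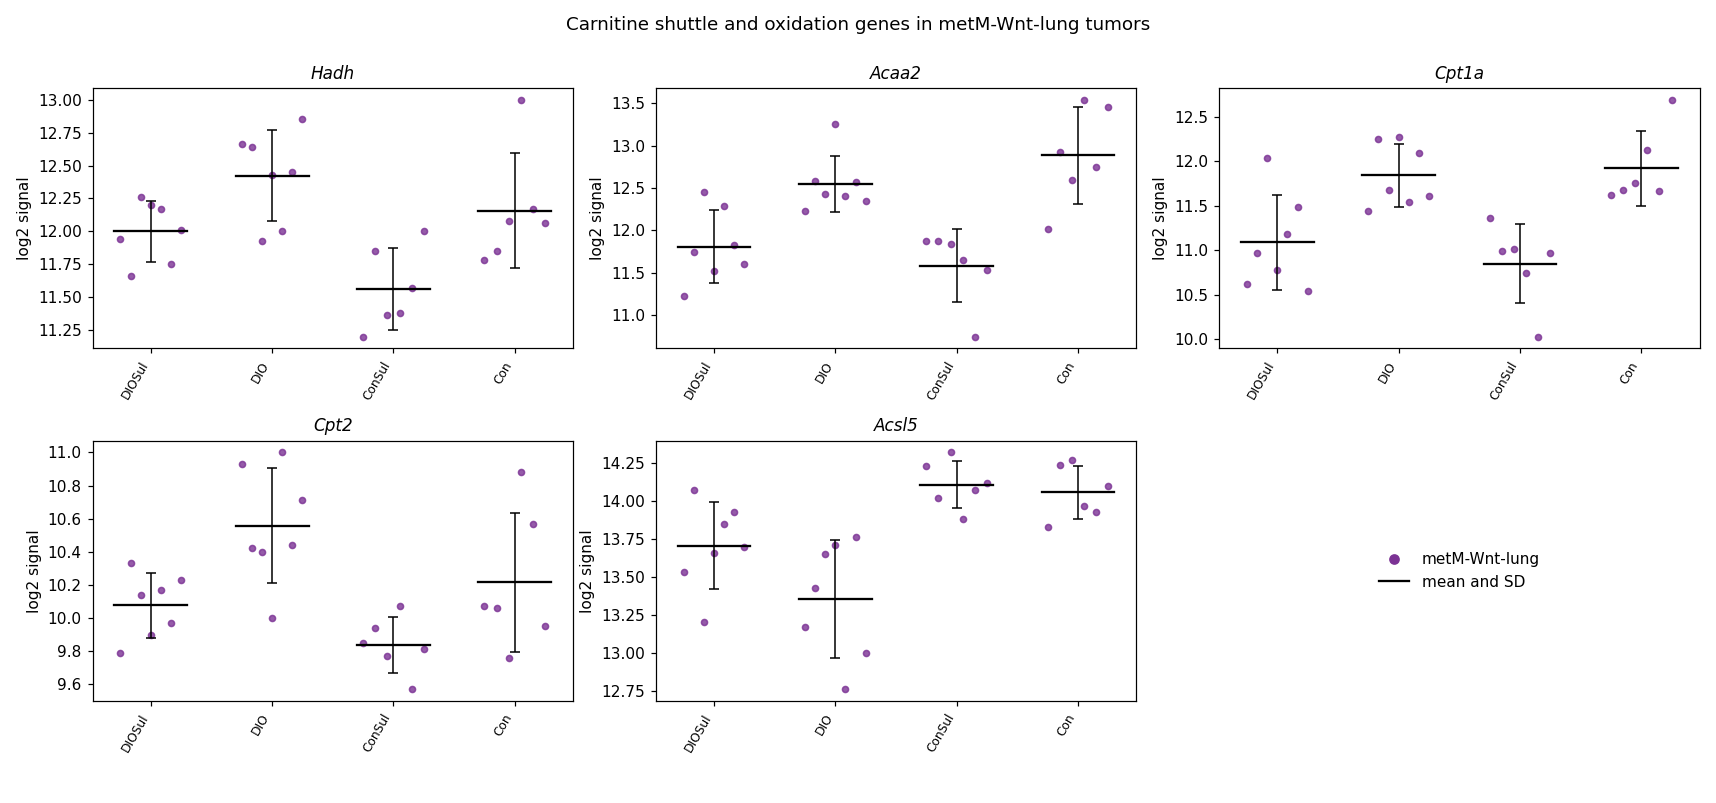
Log2 signal of Hadh, Acaa2, Cpt1a, Cpt2 and Acsl5 in each metM-Wnt-lung tumor (points) by group, with the mean and SD of each group in black. For Cpt1a and Acaa2 the DIO and Con tumors lie above the ConSul tumors, and for Acsl5 the DIO tumors lie below the ConSul and Con tumors.

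Adding sulindac to the obesity diet left none of the 33 genes past the threshold in metM-Wnt-lung tumors, where 0.246% of all genes were called. For DIOSul minus DIO, 9 of the 33 genes had an unadjusted p under 0.05 in limma, as did 11.8% of all genes. The smallest p was that of Cpt1a, at 10.54 to 12.04 (median 10.97) in DIOSul tumors, against 11.44 to 12.27 (median 11.68) in DIO tumors, a difference of -0.75 ± 0.23 (adjusted p = 0.15). Acaa2 was next, at -0.74 ± 0.23 (adjusted p = 0.16). DIOSul minus ConSul gave 0 called of 33, where 0.226% of all genes were called, with 2 genes at an unadjusted p under 0.05 and the smallest p for Acsl5 (-0.40 ± 0.16, adjusted p = 0.37). The effect of sulindac differed between diets for 3 genes, where 8.99% of all genes were called. This difference was 0.63 ± 0.16 for Hadha, 3.0 ± 0.89 for Pparg and 4.49 ± 1.42 for Cd36 (adjusted p = 0.015, 0.034 and 0.046), with the wide-spread Con tumors among the 4 groups.

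In metM-Wnt-liver tumors the group that stood apart was ConSul. Between ConSul and Con tumors 5 of the 33 genes were called (4 higher and 1 lower), where 11.4% of all genes were (5.76% higher and 5.65% lower). Pparg read 7.71, 9.53, 9.62 and 10.26 in the 4 ConSul tumors, against 6.58 to 9.19 (median 7.11) in the 7 Con tumors, and was 1.76 ± 0.47 higher (limma adjusted p = 0.018). Cd36 read 11.31, 13.35, 11.71 and 13.68 in ConSul tumors, against 8.28 to 12.48 (median 9.19) in Con tumors, and was 2.68 ± 0.73 higher (adjusted p = 0.019). The groups overlapped for both genes. Hadha read 13.68, 13.64, 13.68 and 13.55 in ConSul tumors, against 12.79 to 13.55 in Con tumors, touching at 1 value, and was 0.47 ± 0.14 higher (adjusted p = 0.035). Acsl5 was 0.48 ± 0.16 higher and Cpt1c 0.69 ± 0.21 lower (adjusted p = 0.044 and 0.032).

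Against the same ConSul tumors, 5 genes were lower in DIOSul tumors and none higher, where 13.2% of all genes were called and 6.95% were called lower. Pparg lay between 6.34 and 8.34 (median 7.33) in DIOSul tumors, against the ConSul values above, a difference of -2.01 ± 0.47 (limma adjusted p = 0.0066). Cd36 lay between 8.79 and 11.24 (median 9.6) in DIOSul tumors, below each ConSul tumor, and was 2.57 ± 0.73 lower (adjusted p = 0.021). Slc25a20 was 0.82 ± 0.25 lower, Acadl 0.55 ± 0.17 and Hadha 0.45 ± 0.14 (adjusted p = 0.027, 0.034 and 0.039). Cd36 and Hadha were the 2 genes without overlap, where 9.03% of all genes had none. Beside these values, 8 of 9 adipocyte genes were higher in ConSul than in Con tumors and 8 of 9 lower in DIOSul than in ConSul tumors, with scores of -2.55 to 0.91 in DIOSul, 2.56 to 5.38 in ConSul and -2.71 to 3.64 in Con tumors. With the adipocyte and muscle scores as covariates 0 of the 33 genes were called in either comparison. Without ConSul replicate 2 or 4 none of the 33 was called against Con tumors, 1 without ConSul replicate 3, 2 without Con replicate 6, and 3 without Con replicate 2, 5 or 7. Against DIOSul tumors it was 1 without ConSul replicate 4, 2 without ConSul replicate 2 or 3 or DIOSul replicate 7, and 3 without DIOSul replicate 2.

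Obesity and sulindac in obese mice moved none of the 33 genes past the threshold in metM-Wnt-liver tumors. For DIO minus Con limma called 0 of 33 and 0 of all 19505 genes, with 4 of the 33 (12.1%) and 5.36% of all genes at an unadjusted p under 0.05. The smallest p was that of Ehhadh, the bifunctional enzyme of peroxisomes, at -0.87 ± 0.26 (adjusted p = 0.70). For DIOSul minus DIO it called 0 of 33 and 0 of all genes, with 3 of the 33 and 7.54% of all genes at an unadjusted p under 0.05. The smallest p was that of Hadh, which lay between 11.36 and 12.80 in DIOSul tumors, against 12.38 to 13.01 in DIO tumors (-0.54 ± 0.22, adjusted p = 0.55). The effect of sulindac did not pass the threshold for a difference between diets for any of the 33 genes, where 2.22% of all genes did, with the smallest p for Pparg (-1.94 ± 0.62, adjusted p = 0.091).

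In E0771 tumors Pparg was the 1 gene called with obesity and with sulindac in obese mice. It lay between 7.34 and 9.53 (median 8.48) in the 8 DIO tumors, against 8.81 to 12.61 (median 9.40) in the 6 Con tumors, and was 1.54 ± 0.46 lower, 2.91-fold (limma adjusted p = 0.048). That made 1 of 33 genes called in DIO minus Con, where 5.17% of all genes were called and 2.75% were called lower. In the 8 DIOSul tumors Pparg lay between 9.09 and 10.93 (median 9.96), against the same DIO values, and was 1.65 ± 0.43 higher, 3.14-fold (adjusted p = 0.020), again 1 of 33 genes, where 5.03% of all genes were called and 3.02% were called higher. The DIOSul and DIO tumors overlapped between 9.09 and 9.53. Unadjusted limma p was under 0.05 for 6 of the 33 genes (18.2%) in DIO minus Con, beside 21.0% of all genes. In DIOSul minus DIO it was under 0.05 for 10 of the 33 (30.3%), beside 18.7% of all genes. Pparg did not pass in ConSul minus Con, at 8.65 to 11.01 (median 9.82) in ConSul tumors, and the effect of sulindac on it was 1.89 ± 0.65 greater on the obesity diet without passing (adjusted p = 0.16). That last test called 0 of the 33 genes and 0.405% of all genes.

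The lower Pparg of DIO tumors was near the threshold. It was called in 4 of 10 alternatives and lost in the others, with adjusted p = 0.061 to 0.28 there, and it was lost in 20 of 28 fits that left out 1 tumor. Those tumors were Con replicates 1, 2, 3 and 5, ConSul replicates 3, 4 and 5, DIO replicates 1, 2, 3, 6, 7 and 8, and DIOSul replicates 1 to 7. Con replicate 3, at 12.61 for Pparg, mattered most, since the difference was -1.01 (adjusted p = 0.15) without it. With the adipocyte and muscle scores as covariates the difference was -0.73 (adjusted p = 0.28). The higher Pparg of DIOSul than DIO tumors was called in 9 of 10 alternatives and in each of 28 fits that left out 1 tumor, at 1.49 to 1.81, and missed the threshold without tumors high in muscle or skin genes (1.80, adjusted p = 0.055). Of 7 macrophage genes, 4 were lower in DIO than in Con tumors and 5 higher in DIOSul than in DIO tumors, with scores of -0.05 to 0.96 in DIOSul, -1.50 to -0.0035 in DIO and -0.95 to 0.57 in Con tumors. Of the 9 adipocyte genes, 1 was lower in DIO than in Con and 0 were called in DIOSul minus DIO tumors. Of 6 T cell genes, 3 were lower in DIO than in Con tumors and 4 higher in DIOSul than in DIO tumors. The T cell score was -0.21 to 1.79 in DIOSul and -1.65 to -0.38 in DIO tumors, without overlap, and -0.76 to 1.03 in Con tumors. Of 6 neutrophil genes, 2 were higher in DIO than in Con tumors and 2 lower in DIOSul than in DIO tumors, and of 5 fibroblast genes 2 and 1 were lower. The part of these cell types in the Pparg values was not tested.

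**Figure D4:**
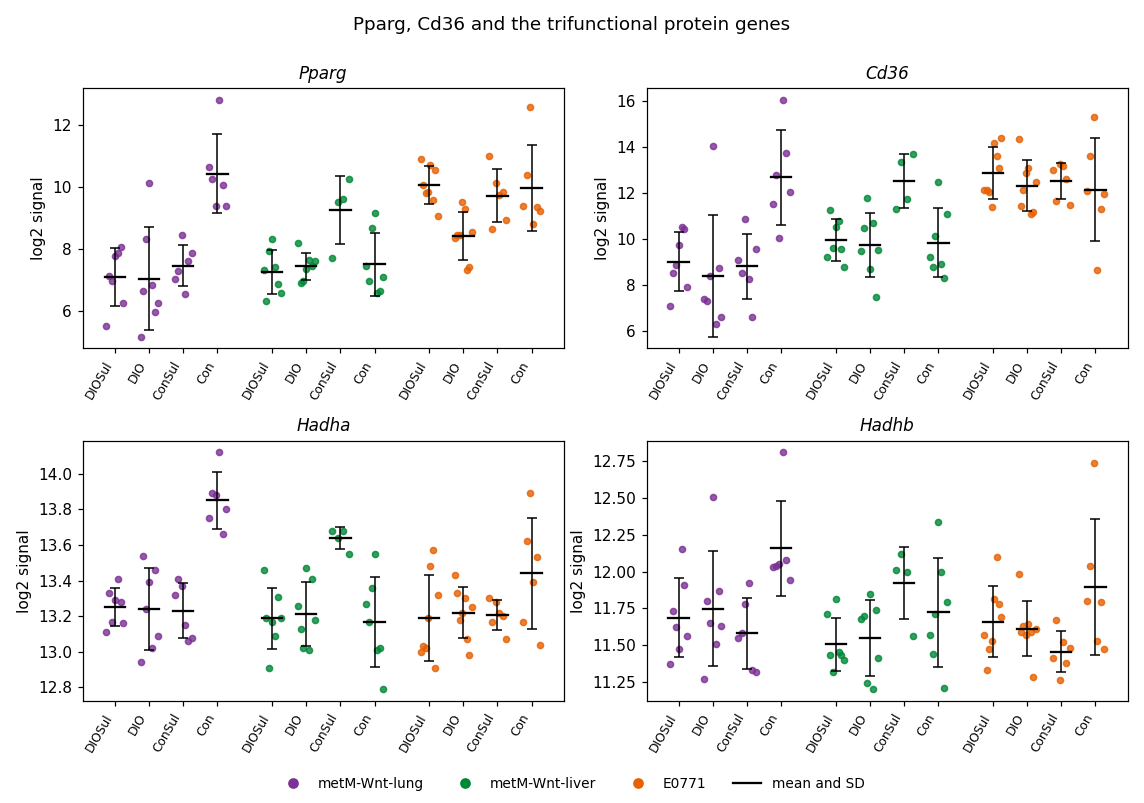
Log2 signal of Pparg, Cd36, Hadha and Hadhb in each tumor (points), by line (color) and group, with the mean and SD of each group in black. metM-Wnt-lung Con tumors have the highest group mean of their line for all 4 genes, as metM-Wnt-liver ConSul tumors have in theirs, and in E0771 the DIO tumors are low for Pparg.

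The oxidation enzymes themselves did not pass the threshold in E0771 tumors. Cpt2 had the smallest p in ConSul minus Con, at 9.12 to 10.07 (median 9.73) in ConSul tumors, against 9.73 to 10.51 (median 10.30) in Con tumors, a difference of -0.64 ± 0.18 (limma adjusted p = 0.29). That comparison called 0 of 33 and 0 of all genes, with 2 of the 33 and 8.39% of all genes at an unadjusted p under 0.05. Cpt2 was also the closest in DIOSul minus ConSul (0.42 ± 0.17, adjusted p = 0.27), where 0 of 33 and 0.0974% of all genes were called, with 3 of the 33 at an unadjusted p under 0.05. In DIOSul minus DIO it stood at -0.50 ± 0.16 (adjusted p = 0.062). Array weights moved these counts most, to 6 genes in DIO minus Con and 11 in DIOSul minus DIO. The share of all genes called under array weights is not given here, so these counts are not a result about the 33 genes.

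Whether an effect differed between lines was tested as a difference of differences in the fit of all 12 groups. For DIO minus Con, 5 of the 33 genes differed between metM-Wnt-lung and metM-Wnt-liver (1 higher and 4 lower), where 11.5% of all genes did, 3 between metM-Wnt-lung and E0771, all lower, where 6.72% did, and 0 between metM-Wnt-liver and E0771, where 0.0615% did. For ConSul minus Con the counts were 11 (1 higher and 10 lower), 6, all lower, and 1, higher, in the same order of lines, where 29.9%, 7.81% and 3.48% of all genes differed. The smallest p in these tests was that of Hadha, at -1.09 ± 0.17 for ConSul minus Con between metM-Wnt-lung and metM-Wnt-liver (limma adjusted p = 1.6e-06). For DIOSul minus DIO the counts were 0, 0 and 0, where 0.0%, 0.497% and 0.692% of all genes differed. Its differences use no group of wide spread, though those groups enter the shared estimate of the spread.

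Ppara lay between 3.18 and 4.56 in metM-Wnt-lung, between 3.16 and 4.43 in metM-Wnt-liver and between 3.32 and 4.67 in E0771 tumors, and was not called in any comparison within a line. These values are near the floor, since the lowest percentile of the arrays ended between 3.1 and 3.45, so a change in Ppara could go unseen. Ppara was 0.22 ± 0.10 lower in metM-Wnt-lung than in E0771 tumors (limma adjusted p = 0.044), a call that 25 of 79 fits without 1 tumor lost. Ppargc1a, the coactivator that drives mitochondrial biogenesis, lay between 3.39 and 5.90, between 3.64 and 5.87 and between 3.79 and 6.35 in the 3 lines in the same order. Within lines it was not called, and it was 0.39 ± 0.17 lower in metM-Wnt-liver than in E0771 tumors (adjusted p = 0.042), lost in 17 of 79 such fits.

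Relations between these genes and the marker scores were read from tumor to tumor. Within groups, that is after group means were removed, Cd36 followed the adipocyte score with Pearson's r = 0.94 and Spearman's rho = 0.90 in metM-Wnt-lung tumors, 0.60 and 0.51 in metM-Wnt-liver tumors, and 0.87 and 0.85 in E0771 tumors. For Pparg r and rho were 0.84 and 0.71 in metM-Wnt-lung tumors, 0.50 and 0.43 in metM-Wnt-liver and 0.77 and 0.70 in E0771 tumors. Hadha and Hadhb followed each other with r = 0.68 and rho = 0.75 in metM-Wnt-lung tumors, 0.54 and 0.51 in metM-Wnt-liver and 0.73 and 0.61 in E0771 tumors. Over the 18 relations tested, each r had a permutation p, two-sided and adjusted by Benjamini-Hochberg, of 0.029 or less, and each rho one of 0.057 or less. Without the 2 tumors farthest from the median, the metM-Wnt-liver relations fell to r = 0.41 for Cd36, 0.29 for Pparg and 0.38 for Hadha (permutation p = 0.064, 0.21 and 0.086), whereas in the other lines r was 0.57 to 0.87. After quantile normalization the 2 farthest tumors were picked anew and may be others. Without them the metM-Wnt-liver values were r = 0.51 for Cd36, 0.45 for Pparg and 0.37 for Hadha (permutation p = 0.0071, 0.054 and 0.10). Cd36, Pparg, Hadha and Hadhb are not among the adipocyte genes.

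The muscle forms were high in the tumors that carried muscle genes. Fabp3 reached 11.61 in metM-Wnt-lung DIOSul replicate 5 and 11.50 in E0771 DIOSul replicate 6, whose muscle scores were 6.98 and 6.69, against group medians of 5.14 and 5.68. Ucp3, an uncoupling protein of muscle mitochondria, read 8.78 and 8.29 and Cpt1b 8.58 and 8.63 in the same 2 tumors. Across all tumors of a line, r with the muscle score was 0.89 to 0.94 for Fabp3, 0.72 to 0.80 for Ucp3 and 0.68 to 0.84 for Cpt1b. Among tumors with a score of at most 2 (18 metM-Wnt-lung, 20 metM-Wnt-liver and 22 E0771 tumors) r was -0.08 to 0.19 for Ucp3 and -0.09 to 0.26 for Cpt1b. For Fabp3 it was 0.76 in metM-Wnt-lung but 0.05 and 0.09 in metM-Wnt-liver and E0771 tumors. Spearman's rho in these tumors was 0.08 to 0.47 for Ucp3, -0.03 to 0.11 for Cpt1b and 0.07 to 0.67 for Fabp3, each highest in metM-Wnt-lung except for Cpt1b. The cut narrows the range of the score, which can lower r by itself. None of the 3 genes was called in any comparison, within a line or between lines.

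**Figure D5:**
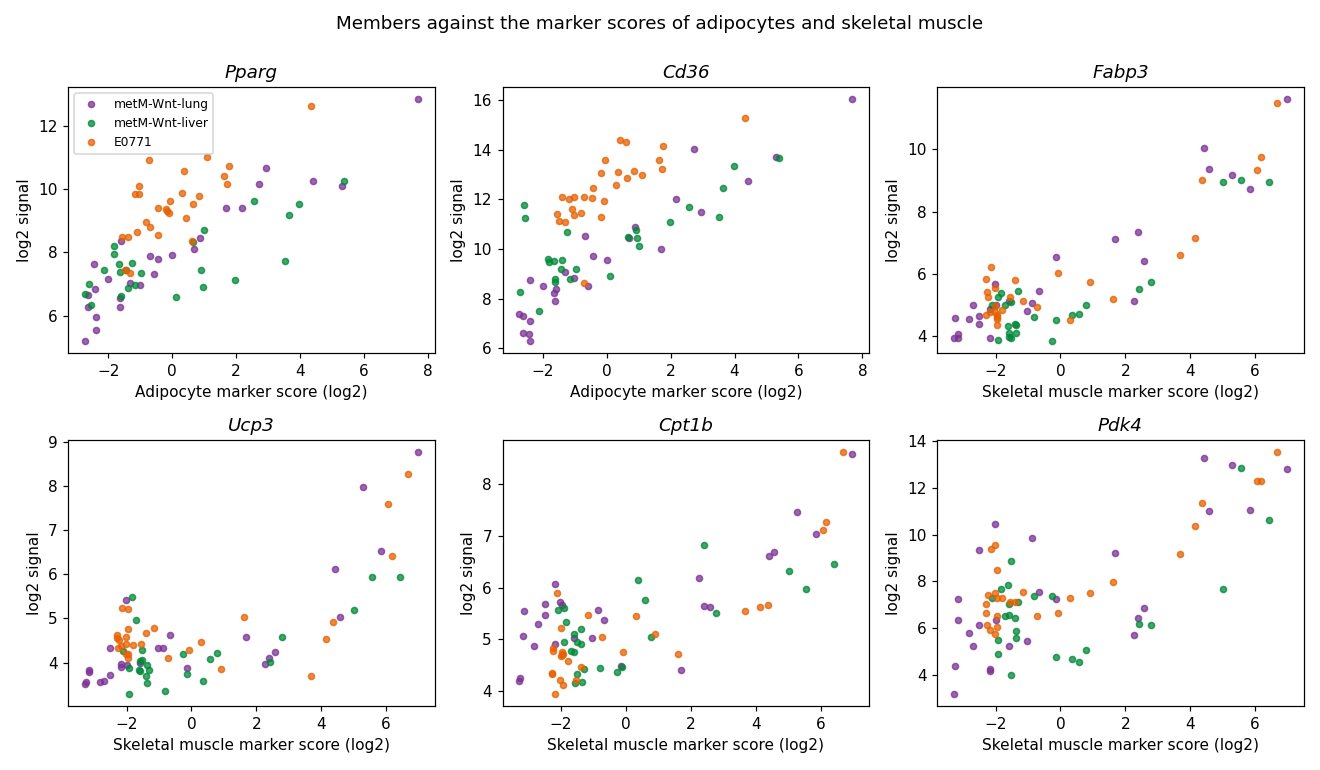
Log2 signal of Pparg and Cd36 against the adipocyte score, and of Fabp3, Ucp3, Cpt1b and Pdk4 against the skeletal muscle score, 1 point per tumor, colored by line. Pparg and Cd36 tend to be higher where the adipocyte score is higher, with the weakest relation within groups in metM-Wnt-liver. The points also hold the differences between groups. Fabp3, Ucp3 and Cpt1b reach their highest values in tumors with a muscle score above 2.

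The rest of the pathway, from lists of other genes with the same functions, was read in the same fits. Of 15 other peroxisomal genes, 5 were lower and 0 higher in DIO than in Con tumors of metM-Wnt-lung, where 13.4% of all genes were called lower and 14.0% higher, led by Phyh, the phytanoyl-CoA hydroxylase (-1.94 ± 0.27, limma adjusted p = 1.3e-05), and Abcd2, a peroxisomal transporter of very long chains (-4.21 ± 0.78). Of 12 other mitochondrial and ketone body genes, 1 was higher and 2 were lower there, among them Bdh1 (0.81 ± 0.29) and Hsd17b10 (-0.42 ± 0.12). Of 17 other PPAR targets and uptake genes, 2 were higher and 3 lower, led by Lpl, lipoprotein lipase, at -5.97 ± 1.05. In E0771 tumors Lpl went the same way as Pparg, 2.27 ± 0.56 lower in DIO than in Con tumors and 2.89 ± 0.52 higher in DIOSul than in DIO tumors (adjusted p = 0.020 and 7.7e-04). Between lines, 10 of these 17 genes were lower and 2 higher in each metM-Wnt line than in E0771 tumors, where 33.9% and 33.5% of all genes were called lower and 29.2% and 29.3% higher, with Acsl6 at -7.58 ± 0.09 and -7.58 ± 0.10. Of 12 partners and energy sensors, Prkaa1, a catalytic subunit of AMP-activated kinase, was 0.96 ± 0.13 higher in DIO than in Con tumors of metM-Wnt-lung, and Sirt3, a mitochondrial deacetylase, was 1.73 ± 0.10 and 1.90 ± 0.11 higher in the metM-Wnt lines than in E0771 tumors.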

How the data were processed

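Tumor RNA was hybridised to Clariom S Mouse HT arrays, and the authors deposited log2 signals from the SST-RMA method of Transcriptome Analysis Console 4.0. The RNA kit differs between the methods (RNeasy) and the labels (EZNA HP). Of 22206 transcript clusters, 19572 had 1 symbol, giving 19505 genes (for 55 with several clusters, the cluster with the highest mean). No value was missing and no arrays were identical. Within each line, limma 3.58.1 (R 4.3.3) fitted the 4 groups on the log2 values, with Benjamini-Hochberg adjustment over all genes and calls at adjusted p under 0.05. Lines were compared in a fit of all 12 groups. Relations used permutation within groups (100000 resamples, scipy 1.17.1), and scripts were tested on simulated data. Full values were given for up to 6 called genes per comparison with the smallest adjusted p, or the gene with the smallest p where none was called. Alternatives covered block, normalization, array weights, variance model, filter, transcript clusters, marker scores, samples in the fit and left-out tumors. The genes, lists and comparisons were chosen with earlier results of these data known. The number of arrays limits precision.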

Additional observations from a re-analysis of the deposited data

Results flagged for a closer look

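Single tumors stood apart from the rest of their group in 30 of 240 gene-by-group sets, which covered 20 of the genes in the 12 groups. The measure was the gap to the nearest other tumor over the range of the group. Chance flags about 1 in 20, or 12, of such sets. Some tumors were flagged for several genes, so the sets are not independent and the 12 is only a rough guide. In 18 of the 30 the tumor was high and had a muscle score above 2. These included Ucp3 at 8.78 (metM-Wnt-lung DIOSul), 6.52 (metM-Wnt-lung ConSul), 5.93 (metM-Wnt-liver DIOSul), 5.2 (metM-Wnt-liver DIO), 8.29 (E0771 DIOSul) and 7.59 (E0771 Con), while Ucp3 at 5.48 in a metM-Wnt-liver Con tumor had a muscle score of -1.84. Fabp3 stood apart at 9.37 (metM-Wnt-lung DIO), 8.95 (metM-Wnt-liver DIOSul), 8.94 (metM-Wnt-liver DIO), 9.03 (metM-Wnt-liver ConSul) and 9.33 (E0771 Con), all with muscle scores above 2, and at 5.83 (E0771 DIO) without. Cpt1b stood apart at 7.04 (metM-Wnt-lung ConSul), 6.83 (metM-Wnt-liver Con), 8.63 (E0771 DIOSul) and 7.27 (E0771 ConSul). Pdk4 was high at 10.63 in a metM-Wnt-liver DIOSul tumor and at 9.55 in an E0771 DIO tumor. Acadl at 13.69 (metM-Wnt-liver DIO) and Acsl4 at 14.33 (metM-Wnt-lung DIOSul) were high in tumors with muscle scores of 5.02 and 2.40.

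Replicate 4 of metM-Wnt-lung Con, with the highest adipocyte score of its line (7.68), was high for Pparg (12.83), Hadhb (12.81) and Hadh (13.00). Replicate 4 of metM-Wnt-lung DIO, with an adipocyte score of 2.72, was high for Cd36 (14.03) and Acaa2 (13.25). The low tumors were those with Acaa2 at 10.75 (metM-Wnt-lung ConSul), Acsl5 at 13.81 (E0771 DIO), Cpt2 at 9.73 (E0771 Con) and Slc25a20 at 10.22 (E0771 DIOSul).

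Several effects differed between lines in the limma fit of all 12 groups. The difference in DIO minus Con between the metM-Wnt-lung and the metM-Wnt-liver line was -3.31 for Pparg, -4.19 for Cd36, -0.65 for Hadha, -0.64 for Acsl5 and 1.53 for Cpt1c, where 11.5% of all genes were called. Between metM-Wnt-lung and E0771 tumors it was -4.46 for Cd36, -0.73 for Acadl and -0.59 for Acadvl, where 6.72% of all genes were called. The difference in ConSul minus Con between the metM-Wnt-lung and the metM-Wnt-liver line was -1.09 for Hadha, -4.72 for Pparg, -6.56 for Cd36, -0.84 for Acadvl, -1.43 for Acaa2, 1.47 for Cpt1c, -6.44 for Pdk4, -1.31 for Cpt1a, -2.0 for Angptl4, -0.78 for Hadhb and -0.65 for Etfa, where 29.9% of all genes were called. Between metM-Wnt-lung and E0771 tumors it was -0.88 for Acadvl, -4.25 for Cd36, -2.72 for Pparg, -1.18 for Acaa2, -5.37 for Pdk4 and -0.59 for Etfa, where 7.81% of all genes were called, and between metM-Wnt-liver and E0771 tumors 0.70 for Hadha, where 3.48% were. Each of these differences uses a group of wide spread and high adipocyte score, which cannot be told apart from the condition. The same holds for the difference in the sulindac effect between diets in metM-Wnt-lung tumors, which was 4.49 for Cd36, 0.63 for Hadha and 3.0 for Pparg.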

How the results depend on the processing

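Counts of called genes moved as follows, and the cause was not tested. With the mouse number of the labels as a replicate block, 0 genes were called in E0771 DIO minus Con, 2 in metM-Wnt-liver ConSul minus Con and 3 in metM-Wnt-liver DIOSul minus ConSul. The numbers do not pair the tumors, since same-numbered tumors of a line had mean correlations of 0.043 in metM-Wnt-lung, -0.012 in metM-Wnt-liver and -0.0069 in E0771, and 5 of 26, 1 of 25 and 3 of 28 tumors in that order of lines correlated best with their own number. For metM-Wnt-lung DIO minus Con the count was 1 with the adipocyte and muscle scores. It was 0 in the fit of both metM-Wnt lines with a term for the wide-spread arrays, which covers all metM-Wnt-lung Con tumors. For E0771 DIO minus Con it was 6 with array weights, 2 among genes above the median signal, and 0 with trended robust variances, without tumors high in muscle or skin genes, with only the 2 groups or with all 3 lines. For E0771 DIOSul minus DIO it was 2 after quantile normalization, 11 with array weights, 3 above the median signal, 0 without tumors high in muscle or skin genes and 2 with only the 2 groups. For metM-Wnt-lung ConSul minus Con it was 1 with the scores, 5 without tumors high in muscle or skin genes, and 0 in the additive fits with and without the wide-spread term (the fit without it was chosen after seeing the data). These additive fits pool both metM-Wnt lines, so they give the same drug difference for each line. For metM-Wnt-liver ConSul minus Con it was 3 after quantile normalization and with array weights, 1 with only the 2 groups, and 0 with the scores, without tumors high in muscle or skin genes and in both additive fits. For metM-Wnt-liver DIOSul minus ConSul it was 3 after quantile normalization and with only the 2 groups, 0 with the scores and 1 without tumors high in muscle or skin genes. For metM-Wnt-lung DIO minus ConSul, also chosen after seeing the data, it was 1 without tumors high in muscle or skin genes and 1 with only the 2 groups. Within single conditions, metM-Wnt-lung minus E0771 gave 15 (ConSul) and 6 (Con), metM-Wnt-liver minus E0771 13 (DIOSul), 11 (ConSul), 15 (DIO) and 9 (Con), and metM-Wnt-lung minus metM-Wnt-liver 4 (DIOSul) and 4 (ConSul).

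Leaving out 1 tumor gave 6 to 11 genes in metM-Wnt-lung DIO minus Con, 7 to 13 in ConSul minus Con and 2 to 6 in DIO minus ConSul. It gave 0 to 5 in metM-Wnt-liver ConSul minus Con and 1 to 6 in DIOSul minus ConSul. In E0771 it gave 0 to 2 in DIO minus Con (2 without Con replicate 6) and 1 to 3 in DIOSul minus DIO (3 without DIOSul replicate 8, and 2 without Con replicate 6, ConSul replicate 2 or DIOSul replicate 2). Between lines it gave 22 to 25, 22 to 24 and 7 to 8, and the other comparisons within lines stayed at 0.

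Signs turned for these genes. Against metM-Wnt-liver ConSul minus Con, the additive fits turned signs, but they pool both metM-Wnt lines into a shared drug difference. For Cd36 the separate fits gave 2.68 in metM-Wnt-liver and -3.88 in metM-Wnt-lung tumors. With and without the wide-spread term the shared difference was -0.54 and -0.78 for Cd36, -0.53 and -0.70 for Pparg and -0.066 and -0.11 for Hadha. Cpt1c stood at 0.034 without the term. These are not values of metM-Wnt-liver alone. With the scores, metM-Wnt-lung ConSul minus Con gave 1.86 for Cd36, 0.18 for Hadhb, 0.078 for Pparg and 0.064 for Slc25a20, and DIO minus Con gave 2.58 for Cd36 and 0.19 for Pparg. For metM-Wnt-liver minus E0771, the uncentred adipocyte and muscle levels as covariates gave 0.33 for Cd36 and 0.0094 for Ppargc1a. There, ConSul tumors alone gave 0.0075 for Cd36 and 0.057 for Cpt2, DIO tumors alone -0.10 for Acadl and Con tumors alone 0.12 for Decr2. For metM-Wnt-lung minus E0771, Con tumors alone gave 0.295 for Acaa2, 0.25 for Acadvl, 0.54 for Cd36, 0.065 for Etfa, 0.035 for Ppara and 0.465 for Pparg. For metM-Wnt-lung minus metM-Wnt-liver, Con tumors alone gave 0.10 for Acsl5.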
